A study of Mus musculus with 6 samples.

Results

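Most of the 33 genes described here encode enzymes and transporters that carry fatty acids into mitochondria and shorten them by beta-oxidation. Others act beside that path, among them Acaa1a, Acad8, Acadsb, Acad9, Acacb, Acot1 and Ucp3, whose roles are given below. The 33 genes were taken by name from a list of carnitine-dependent, acyl-CoA and electron transfer genes. The list was not chosen by a threshold on these data, but earlier results of these data were known when it was chosen. All 33 were found among 35498 genes to which deposited transcripts were matched, with or without reads. All 33 passed the low-count filter that left 14237 genes for testing. The source was ventricle distal to a coronary ligature in C57BL/6J mice aged 8 to 10 weeks, taken at day 7 of an infarct made by tying the left anterior descending artery. Every mouse carried Postn CreER+/-, a tamoxifen-inducible recombinase driven by the periostin promoter, and received tamoxifen in the diet from surgery onwards. The control group (CTL, n = 3, 1 female and 2 male) carried Runx1 WT. Mice of the knockout group (Runx1_FB_KO, n = 3, 2 female and 1 male) carried Runx1 fl, the floxed allele. Deletion was therefore directed at periostin-expressing cells, which are chiefly activated fibroblasts, whereas the RNA was that of the whole tissue, heart muscle included. The labels do not state that the libraries came from separate litters or surgeries, so p-values measure the spread between these libraries.

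Heart muscle draws most of its energy from long-chain fatty acids. Acyl groups are transferred to carnitine by carnitine palmitoyltransferase 1 at the outer mitochondrial membrane, carried across the inner membrane and returned to coenzyme A by Cpt2. A repeating cycle of dehydrogenation, hydration, a further dehydrogenation and thiolysis then releases acetyl-CoA, and electrons from the first step pass through the electron transfer flavoprotein to the respiratory chain. Malonyl-CoA, made at the mitochondrial surface by Acacb and removed by Mlycd, inhibits carnitine palmitoyltransferase 1 and so sets the rate of entry.

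The libraries held 16598561 to 19987279 estimated reads, so a gene's counting error was small for all but the lowest members. Mitochondrially encoded transcripts took 5.36% to 7.11% of the reads across CTL and 10.37% to 24.49% in Runx1_FB_KO, and replicate 3 was the lowest of the knockout libraries. Runx1 itself, on the CPM scale (read counts corrected for library size and TMM factors), was at 96.4, 86.9 and 85.5 across CTL and at 17.5, 10.9 and 67.4 in Runx1_FB_KO replicates 1, 2 and 3. The targeted gene was below CTL in every knockout library, least so in replicate 3, but did not pass the threshold (edgeR adjusted p = 0.154). All 16 cardiomyocyte markers were detected, with a summed level of 20910 to 24610 TPM (a length-corrected share of transcripts) across CTL and 42090 to 85240 TPM in Runx1_FB_KO, and all 16 were higher in every knockout library than in any CTL library by TMM-scaled CPM (15 of 16 by TPM, where Mybpc3 overlapped). The 10 activated fibroblast markers summed to 12900 to 15320 TPM across CTL and 1998 to 10340 TPM in Runx1_FB_KO, and the 8 macrophage markers to 2405 to 3297 and 431 to 2043 TPM. By TMM-scaled CPM, all knockout libraries lay below CTL for 6 of these fibroblast markers and 6 of these macrophage markers (18.8% of all genes tested). Postn, Cthrc1, Lum and Dcn overlapped, with a log2 fold change of -0.04 for Dcn, as did Cd68 and Adgre1. Of the 6 adipocyte markers, Adipoq, Plin1, Cidec, Lep and Ucp1 were at 0 in CTL replicate 1, and Lep also in CTL replicate 3. Adipoq was at 60.4 and 42.3 TPM in CTL replicates 2 and 3. Cidea was unlike these, at 13.7, 14.0 and 12.4 TPM across CTL and 19.05, 21.4 and 19.3 TPM in Runx1_FB_KO replicates 1, 2 and 3. In bulk tissue, fewer cells of a type and less RNA per cell cannot be told apart, and the part of these shifts in the results for the beta-oxidation genes was not tested.

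Most beta-oxidation genes were higher in all 3 knockout libraries than in any CTL library, and none passed the test with all 6 libraries. By TMM-scaled CPM, the 3 knockout values lay above the 3 CTL values for 26 of the 33 members (20.2% of all genes tested). They lay below for 0 (18.8%). The 7 members that overlapped were Cpt1a, Slc22a5, Acad8, Acad10, Acadsb, Acaa1a and Acot1. With TMM scaling, the median log2 fold change over the members was 2.13, beside -0.06 over all genes tested, and 32 of 33 members had a positive value. By TPM, the mean was lower in the knockout for Cpt1a, Slc22a5, Acad8, Acad10 and Acaa1a. On that scale all knockout libraries lay below CTL for Cpt1a, Acad10 and Acaa1a, and the groups of Acad9 overlapped. The share of all genes that lay below CTL by TPM was not determined. With library size alone it was 39.8%. In the edgeR quasi-likelihood test with Benjamini-Hochberg adjustment over all genes, 0 members passed an adjusted p of 0.05 in either direction (0.0% of all genes in each), and the members' adjusted p values ran from 0.0682 to 0.963. An unadjusted p under 0.05 was reached by 29 members with higher values in the knockout (19.3% of all genes) and by 0 with lower values (13.1%). At an adjusted p under 0.1, 26 were called higher (12.5% of genes) and 0 lower (3.74%). DESeq2 called 27 members higher (14.8% of genes) and 0 lower (5.17%), and edgeR with no filter on low counts 24 higher (4.21%) and 0 lower (0.193%). Without Runx1_FB_KO replicate 3, edgeR called 31 members higher (25.1% of genes), all but Cpt1a and Acad10, and 0 lower (22.5%).

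**Figure D1:**
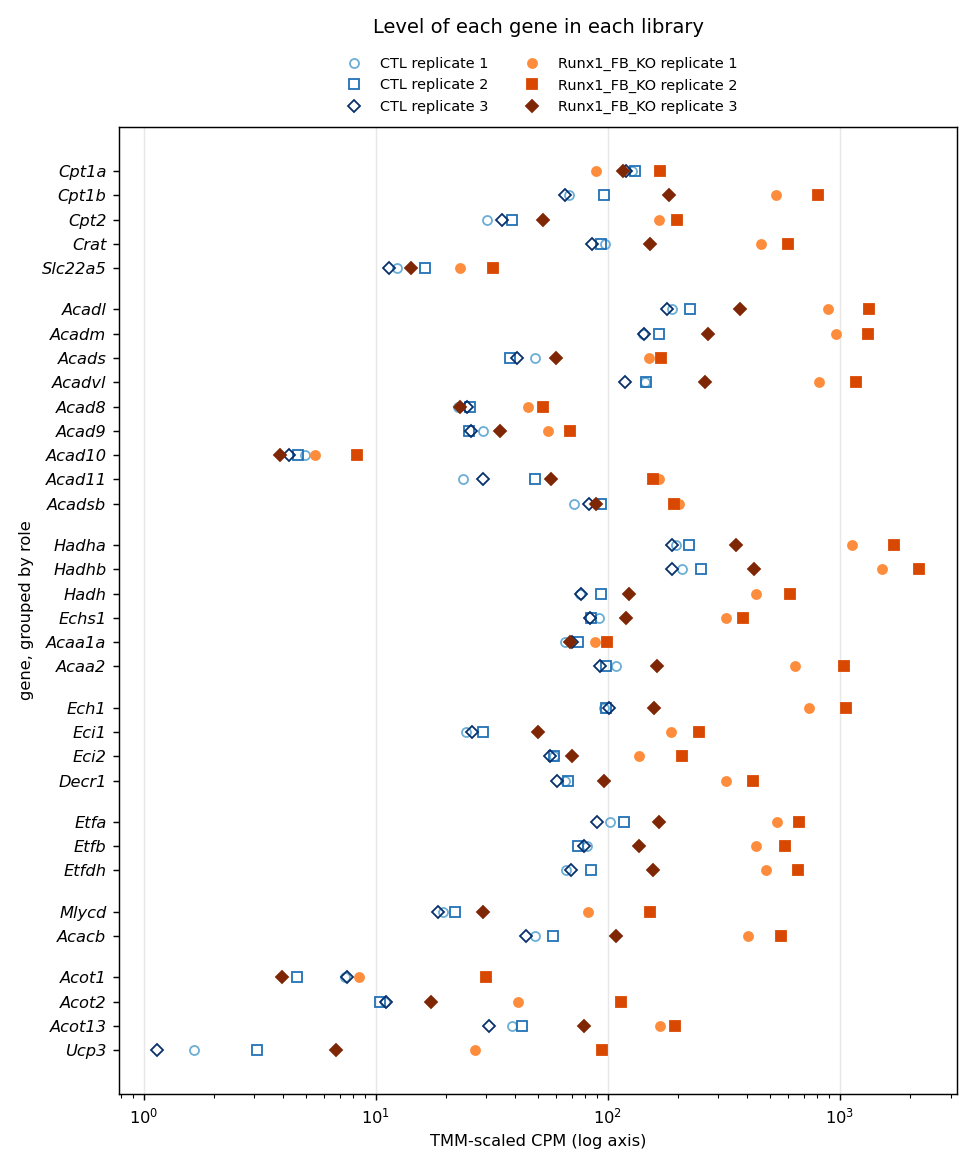
Level of each of the 33 beta-oxidation genes in each library as TMM-scaled CPM on a log axis, grouped by role, with open symbols for CTL and filled symbols for Runx1_FB_KO. For most genes the filled symbols lie to the right of the open ones, replicate 3 closest to them, while Cpt1a, Acaa1a, Acad8 and Acad10 show overlapping groups.

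The size of these differences depended on how libraries were scaled and on which knockout library was considered. With library size alone, the median log2 fold change of the members was 1.54, where that of all genes was -0.52. On that scale 26 members lay above CTL in all knockout libraries (10.8% of genes) and 2, Cpt1a and Acaa1a, below (39.8%). With RLE factors the counts were 26 (21.4%) and 0 (16.9%), and with upper quartile scaling 26 (18.7%) and 0 (21.1%). Without CTL replicate 2 they were 28 (25.4%) and 0 (25.8%), without Runx1_FB_KO replicate 2 26 (22.3%) and 1 (21.2%), and without Runx1_FB_KO replicate 3 32 (32.6%) and 0 (36.6%). Without CTL replicate 1 (24.4% and 25.5%), CTL replicate 3 (21.9% and 21.4%) or Runx1_FB_KO replicate 1 (21.2% and 20.5%) they stayed at 26 and 0. Among the knockout libraries replicate 2 was highest of all 6 libraries for 31 of 33 members (29.6% of all genes), and replicate 3 was the lowest of the knockout libraries for 32 of 33 (41.3% of all genes). The order of replicate 2 above 1 above 3 held for 30 of all 33 members (29.4% of all genes tested). It held for 69.0% of the 2871 genes tested whose knockout values all lay above CTL. The summed level of the 33 members was 2438, 2647 and 2377 TPM across CTL and 6410, 8945 and 3588 TPM in Runx1_FB_KO replicates 1, 2 and 3. Library by library, the members thus spread over a wider range within the knockout group than within CTL.

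**Figure D2:**
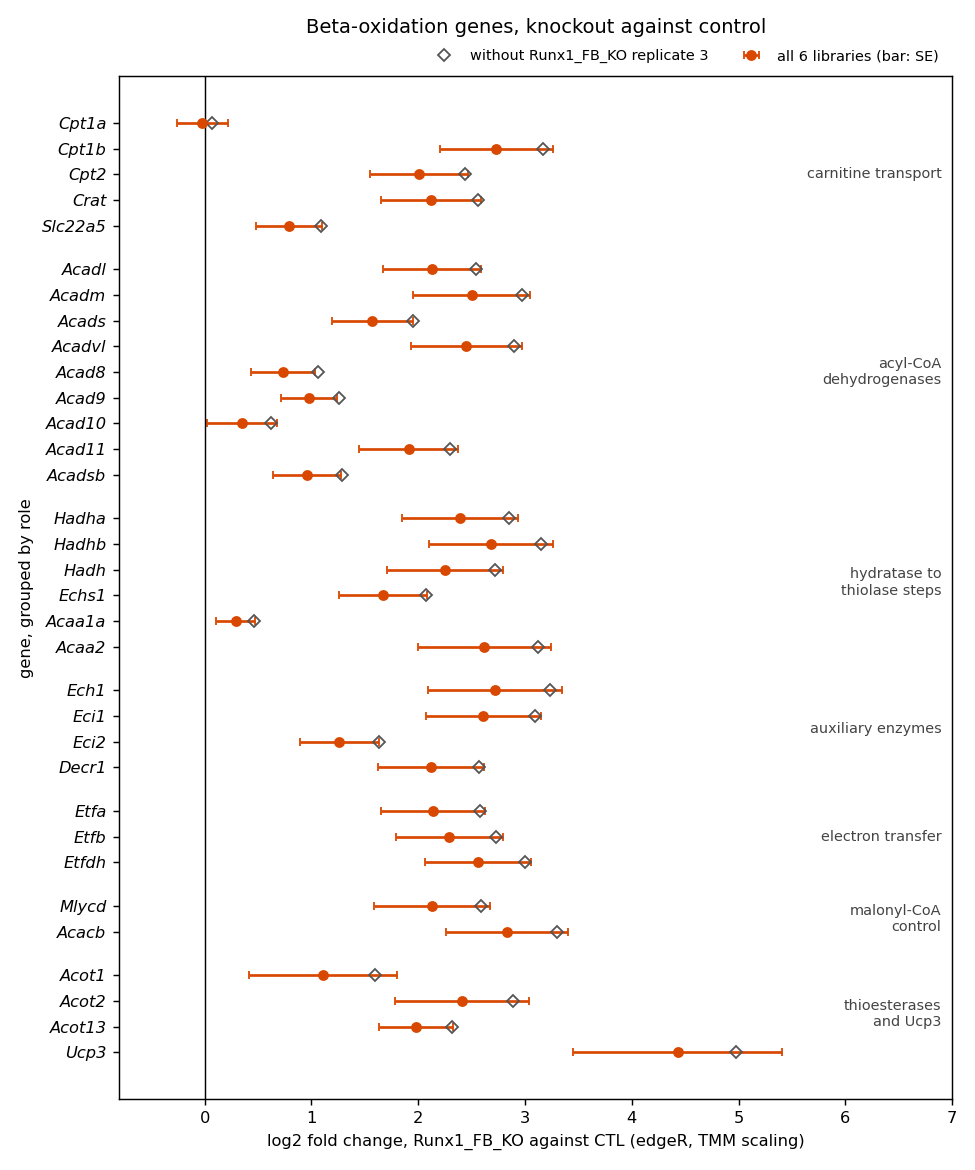
Log2 fold change of Runx1_FB_KO against CTL for each gene, grouped by role, from edgeR with TMM scaling. Filled points with SE bars use all 6 libraries and open diamonds leave out Runx1_FB_KO replicate 3; the filled points run from -0.02 for Cpt1a to 4.43 for Ucp3 and the diamonds from 0.07 to 4.98 for the same genes.

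Of the 12 ratios of member pairs compared within libraries, that of the carnitine palmitoyltransferase 1 paralogs differed most between the groups. Cpt1a, the liver-type carnitine palmitoyltransferase 1 (GRCm38 chromosome 19, 3322334 to 3385733, plus strand), was at 127, 131 and 119 CPM across CTL and 89.4, 167 and 116 CPM in Runx1_FB_KO replicates 1, 2 and 3. Its groups overlapped, with a log2 fold change of -0.02 (SE 0.24, edgeR adjusted p = 0.963). Cpt1b, the muscle-type enzyme (chromosome 15, 89416405 to 89425863, minus strand), was at 67.9, 96.6 and 65.7 CPM across CTL and 533, 808 and 183.5 CPM across knockout libraries. Every knockout library was above CTL, with a log2 fold change of 2.73 (SE 0.53, edgeR adjusted p = 0.0682). On the length-corrected TPM scale the paralogs stood nearly level in CTL, at 49.6 ± 1.47 TPM for Cpt1a and 47.6 ± 9.36 TPM for Cpt1b (SD, n = 3). In the knockout Cpt1b was at 173, 252 and 101 TPM and Cpt1a at 17.7, 33.1 and 40.7 TPM. The ratio of Cpt1b to Cpt1a within a library, which no scaling between libraries affects, was 0.854, 1.15 and 0.869 across CTL and 9.78, 7.63 and 2.47 in the knockout. The ratio was above every CTL library in each knockout library, and its mean on the log2 scale was higher by 2.58 (exact permutation test over samples, two-sided, p = 0.10, the smallest that 3 against 3 libraries allow; 0.13 adjusted over 12 ratios). The direction of Cpt1a itself was not settled by scaling, since with library size alone its log2 fold change was -0.50 and all knockout libraries lay below CTL.

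**Figure D3:**
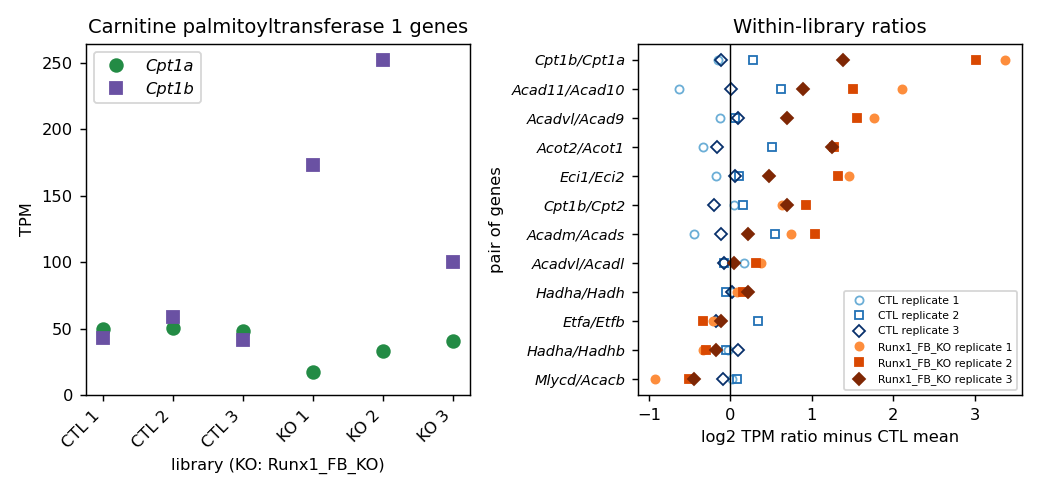
Left, TPM of Cpt1a (circles) and Cpt1b (squares) in each library: the 2 genes are close together across CTL and apart in the knockout, where Cpt1b runs from 101 to 252 TPM. Right, log2 TPM ratio of 12 pairs of genes within each library, minus the CTL mean of that ratio; open symbols are CTL, filled symbols Runx1_FB_KO.

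The other carnitine genes differed among themselves. Cpt2, the inner membrane transferase, was at 30.1, 38.5 and 34.9 CPM across CTL and 166, 199 and 52.7 CPM across knockout libraries, with a log2 fold change of 2.01 (SE 0.46, edgeR adjusted p = 0.0682). The ratio of Cpt1b to Cpt2 was 1.84, 1.99 and 1.55 across CTL and 2.74, 3.39 and 2.89 in the knockout, again without overlap (difference 0.75 on the log2 scale, exact permutation p = 0.10). Unlike the ratio of the Cpt1 paralogs, this one was about as high in replicate 3 as in replicates 1 and 2. Crat, which moves acetyl groups between coenzyme A and carnitine, was at 92.3 ± 5.88 CPM across CTL and 402.5 ± 228 CPM across knockout libraries (SD, n = 3). Slc22a5, the plasma membrane carnitine transporter OCTN2, was at 12.3, 16.3 and 11.4 CPM across CTL and 23.2, 32.0 and 14.2 CPM across knockout libraries. Its groups overlapped (log2 fold change 0.79, SE 0.31, edgeR adjusted p = 0.139). Slc22a5 shares 35.8% of its 31-base words with its neighbour in sequence Slc22a21, so the division of reads between them is uncertain. Slc22a21 was at 5.66 ± 0.30 CPM across CTL and 1.997 ± 0.75 CPM across knockout libraries, with all knockout libraries below CTL (log2 fold change -1.49, edgeR adjusted p = 0.0682).

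Among the acyl-CoA dehydrogenases, which open each turn of the cycle, the straight-chain enzymes were higher in the knockout libraries and the smallest of these differences was that of the short-chain enzyme. Acadvl, the membrane-bound very-long-chain enzyme, was at 145, 146 and 119 CPM across CTL and 810, 1170 and 262 CPM in Runx1_FB_KO replicates 1, 2 and 3 (log2 fold change 2.45, SE 0.52). Acadl, the long-chain enzyme, was at 189, 226 and 180 CPM and at 891, 1342 and 373 CPM (2.13, SE 0.46). Neither gene's groups overlapped. Acadm, the medium-chain enzyme, was at 142, 165.5 and 143 CPM across CTL and 961, 1327 and 269 CPM across knockout libraries (2.50, SE 0.55). Acads, the short-chain enzyme, was at 48.8, 38.03 and 40.8 CPM and at 150, 169.5 and 59.9 CPM (1.57, SE 0.38). The edgeR adjusted p was 0.0682 for Acadvl, Acadl and Acadm and 0.0691 for Acads. The within-library ratio of Acadm to Acads was 2.56, 5.09 and 3.23 across CTL and 5.88, 7.16 and 4.05 in the knockout. In TPM its groups overlapped through CTL replicate 2 (difference 0.67 on the log2 scale, exact permutation p = 0.2). From estimated counts they did not overlap (difference 0.78, exact permutation p = 0.1), so overlap of this ratio depended on the measure. For Acadvl over Acadl the ratio was 0.689, 0.580 and 0.577 across CTL and 0.797, 0.765 and 0.632 in the knockout, also overlapping (difference 0.25, exact permutation p = 0.2).

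Acad9, known chiefly as an assembly factor of respiratory complex I, was at 28.9, 25.2 and 25.9 CPM across CTL and 55.5, 68.5 and 34.2 CPM across knockout libraries (log2 fold change 0.98, SE 0.26, edgeR adjusted p = 0.0753). It is the closest relative of Acadvl in the family, and the ratio of Acadvl to Acad9 was 5.16, 5.89 and 6.01 across CTL and 19.2, 16.7 and 9.19 in the knockout. Those values did not overlap (difference 1.34 on the log2 scale, exact permutation p = 0.10). Acad11, which acts on long chains and on hydroxylated acids, was at 23.8, 48.5 and 29.1 CPM across CTL and 166, 157 and 56.7 CPM across knockout libraries (1.91, SE 0.46, edgeR adjusted p = 0.0696). Acad10, the lowest dehydrogenase by TPM, was at 4.94, 4.64 and 4.23 CPM across CTL and 5.50, 8.28 and 3.88 CPM across knockout libraries, with overlapping groups (0.35, SE 0.33, edgeR adjusted p = 0.467; -0.18 with library size alone). The ratio of Acad11 to Acad10 was 3.99, 9.54 and 6.24 across CTL and 26.8, 17.5 and 11.5 in the knockout. All knockout ratios were above CTL (difference 1.5 on the log2 scale, exact permutation p = 0.10). Acad12, a paralog that shares 22.9% of the 31-base words of Acad10, was at 11.1, 22.7 and 14.9 CPM across CTL and 105, 113 and 29.5 CPM across knockout libraries (2.35, SE 0.53). The branched-chain amino acid enzymes Acad8 (isobutyryl-CoA) and Acadsb (2-methyl branched acyl-CoA) overlapped between the groups, at log2 fold changes of 0.73 for the former (SE 0.30) and 0.96 for the latter (SE 0.32).

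The later steps of the long-chain cycle are carried by the trifunctional protein, whose subunits are Hadha and Hadhb. Hadha (chromosome 5, 30118304 to 30155162, minus strand) was at 197, 224 and 189 CPM across CTL and 1132, 1714 and 357 CPM across knockout libraries (log2 fold change 2.39, SE 0.54). Hadhb (chromosome 5, 30155248 to 30184593, plus strand) was at 208, 251 and 189.5 CPM and at 1523, 2202 and 427 CPM (2.68, SE 0.58). Both had an edgeR adjusted p of 0.0682, and neither had overlapping groups. These genes lie head to head, and the promoter windows of RefSeq, which reach from 250 bases before to 50 bases after a transcription start, share 228 bases. The window of Hadhb is shown because a common stretch of DNA precedes the RefSeq starts of both subunit genes. The Hadha gene with the bounds given above reaches into that stretch, as its RefSeq start differs from its annotated end. Capitals mark the bases that also lie in the window of Hadha, whose RefSeq start is 273 bases away on the opposite strand (GRCm38.p6, chr5:30155003-30155302, plus strand).
Hadhb promoter window: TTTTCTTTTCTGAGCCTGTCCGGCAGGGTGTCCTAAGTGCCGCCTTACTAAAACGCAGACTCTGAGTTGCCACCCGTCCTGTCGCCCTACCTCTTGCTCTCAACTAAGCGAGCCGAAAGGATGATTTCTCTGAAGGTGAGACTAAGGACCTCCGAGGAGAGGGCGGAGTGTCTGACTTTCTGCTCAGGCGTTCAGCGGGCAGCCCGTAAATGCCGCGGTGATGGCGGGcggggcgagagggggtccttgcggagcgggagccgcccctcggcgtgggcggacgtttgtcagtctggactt
Hadha over Hadhb in TPM was 0.619, 0.609 and 0.679 across CTL and 0.501, 0.514 and 0.558 in the knockout, all knockout libraries being lower (difference -0.28 on the log2 scale, exact permutation p = 0.10). Hadhb shares 19.5% of its 31-base words with the annotated gene Gm13910, which was at 3.004 TPM or less in every library.

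Enzymes of the medium- and short-chain steps in the matrix followed. Hadh, the short-chain hydroxyacyl-CoA dehydrogenase, was at 75.6, 93.5 and 76.5 CPM across CTL and 437, 609 and 124 CPM across knockout libraries (log2 fold change 2.25, SE 0.54, edgeR adjusted p = 0.0690). Hadha over Hadh in TPM was 1.47, 1.40 and 1.46 across CTL and 1.52, 1.61 and 1.68 in the knockout. This was a small difference without overlap (difference 0.15, exact permutation p = 0.10). From estimated counts the difference was also 0.15, but the groups overlapped (exact permutation p = 0.2). Echs1, the short-chain enoyl-CoA hydratase, was at 86.6 ± 4.36 CPM across CTL and 276 ± 138 CPM across knockout libraries (SD, n = 3). Acaa2, the mitochondrial thiolase, was at 100.1 ± 7.99 and 617 ± 443 CPM (2.62, SE 0.62, edgeR adjusted p = 0.0687). Acaa1a, the peroxisomal thiolase, was at 65.5, 74.5 and 70.1 CPM across CTL and 88.2, 99.3 and 68.7 CPM across knockout libraries. Its groups overlapped (0.29, SE 0.18, edgeR adjusted p = 0.276). With library size alone the log2 fold change of Acaa1a was -0.21 and all knockout libraries were below CTL, so its direction depended on the scaling.

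The auxiliary enzymes prepare unsaturated fatty acids for the cycle. Ech1, a dienoyl-CoA isomerase, was at 96.8, 97.9 and 101.4 CPM across CTL and 737, 1061 and 158 CPM across knockout libraries (log2 fold change 2.72, SE 0.63). Eci1, the mitochondrial enoyl-CoA isomerase, was at 24.5, 28.9 and 26.0 CPM and at 188, 248 and 50.3 CPM (2.61, SE 0.54). Its relative Eci2, found in mitochondria and peroxisomes, was at 58.5, 58.7 and 56.1 CPM across CTL and 136.5, 210 and 70.5 CPM across knockout libraries (1.26, SE 0.37, edgeR adjusted p = 0.0878). None of these had overlapping groups. The ratio of the isomerases also differed without overlap. Eci1 over Eci2 in TPM was 0.555, 0.673 and 0.651 across CTL and 1.72, 1.56 and 0.867 across knockout libraries (difference 1.08 on the log2 scale, exact permutation p = 0.10). In replicate 3 Eci2 was still the more abundant. Decr1, the dienoyl-CoA reductase, was at 64.4 ± 3.59 CPM across CTL and 280.0 ± 167 CPM across knockout libraries (2.12, SE 0.50).

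Electron transfer from the dehydrogenases had the narrowest range of any step with more than a pair of genes. Etfa and Etfb encode the subunits of the electron transfer flavoprotein, and Etfdh the oxidoreductase that hands its electrons to ubiquinone. Etfa was at 102, 118 and 90.0 CPM across CTL and 535.5, 665.5 and 167 CPM across knockout libraries, and Etfb at 81.2, 74.7 and 79.1 CPM and at 433.5, 579.5 and 136 CPM. Etfdh was at 65.9, 84.8 and 69.6 CPM across CTL and 482, 658 and 156 CPM across knockout libraries. All knockout libraries were above CTL for each gene, with log2 fold changes of 2.14 (SE 0.49), 2.29 (SE 0.50) and 2.56 (SE 0.50), all at an edgeR adjusted p of 0.0682. The ratio of the flavoprotein subunits overlapped between the groups. Etfa over Etfb was 0.597, 0.841 and 0.586 in CTL. In the knockout it was 0.574, 0.530 and 0.610 (difference -0.22 on the log2 scale, exact permutation p = 0.3). Etfb shares 47.3% of its 31-base words with Gm45233, an overlapping gene on the same strand, which was given at most 0.20% of the reads of the pair.

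Promoter windows were available for 27 members, counting a window of 300 bases each. There was none for Cpt1b, Crat, Acad9, Acaa2, Decr1 and Acot13. The window of Etfdh (GRCm38.p6, chr3:79628718-79629017, minus strand) is shown because it holds, in capitals, a match to the nuclear respiratory factor 1 motif. That motif is GCGCA, any base, then GCGC, searched on both strands. Etfdh also had the largest fold change of the electron transfer genes. Its window lies inside the annotated bounds of the gene (79603788 to 79629500), as the RefSeq start differs from the annotated end. The window of Acad10, a gene with overlapping groups, is set beside it because it holds 2 matches (chr5:121660461-121660760, minus strand).
Etfdh promoter window: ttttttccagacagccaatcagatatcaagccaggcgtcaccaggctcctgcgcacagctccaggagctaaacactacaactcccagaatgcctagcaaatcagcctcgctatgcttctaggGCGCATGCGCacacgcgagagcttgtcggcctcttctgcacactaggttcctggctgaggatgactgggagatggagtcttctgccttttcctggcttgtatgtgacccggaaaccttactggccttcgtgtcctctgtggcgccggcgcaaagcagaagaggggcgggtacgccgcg
Acad10 promoter window: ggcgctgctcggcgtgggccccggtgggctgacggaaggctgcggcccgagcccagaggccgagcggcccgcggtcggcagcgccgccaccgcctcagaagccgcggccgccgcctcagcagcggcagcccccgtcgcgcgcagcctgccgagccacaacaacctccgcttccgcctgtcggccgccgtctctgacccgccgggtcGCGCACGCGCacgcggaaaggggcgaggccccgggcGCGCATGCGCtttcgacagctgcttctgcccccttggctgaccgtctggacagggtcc
Matches were found in 4 of the 27 members (Acad10, Etfb, Etfdh and Slc22a5) and in 4.6% of 32851 windows of all genes. In 2 of the 4, Etfb and Etfdh, the knockout libraries all lay above CTL, and in Acad10 and Slc22a5 the groups overlapped. The estrogen-related receptor motif TCAAGGTCA was in 0 of the 27 windows (0.423% of all windows), and the direct repeat bound by PPAR with RXR (AGGTCA, any base, AGGTCA) in 0 (0.0396%), both strands being searched. These letters are absent from these windows only. With shares so low over all windows, 0 in 27 does not set the members apart from other genes.

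Opposing enzymes of malonyl-CoA were both higher in the knockout libraries. Acacb, the mitochondria-associated acetyl-CoA carboxylase that makes malonyl-CoA, was at 48.7, 58.1 and 44.4 CPM across CTL and 403.5, 560.5 and 108 CPM across knockout libraries (log2 fold change 2.83, SE 0.57, edgeR adjusted p = 0.0682). Mlycd, which degrades it, was at 19.5, 22.0 and 18.6 CPM and at 82.0, 152 and 28.9 CPM (2.13, SE 0.54, edgeR adjusted p = 0.0728). Neither gene's groups overlapped. Per length, Mlycd exceeded Acacb in CTL, with a ratio of 1.71, 1.77 and 1.57. The ratio was 0.887, 1.18 and 1.23 in the knockout, lower in every library (difference -0.63 on the log2 scale, exact permutation p = 0.10). Acacb was also a member for which the transcript given the most reads was not the same in all libraries, as was Acad10; for the other 31 members it was the same in all 6.

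Ucp3, a mitochondrial carrier of muscle that is induced when fatty acid supply is high, had the largest fold change of the members. It was at 1.65, 3.08 and 1.14 CPM across CTL and 26.7, 94.6 and 6.74 CPM in Runx1_FB_KO replicates 1, 2 and 3. The groups did not overlap, but the knockout libraries spread widely (log2 fold change 4.43, SE 0.98, edgeR adjusted p = 0.0682). The thioesterase Acot2, which releases fatty acids from coenzyme A inside mitochondria, was at 10.9, 10.4 and 11.04 CPM across CTL and 41.0, 114.5 and 17.4 CPM across knockout libraries (2.41, SE 0.63, edgeR adjusted p = 0.0753). Its cytosolic paralog Acot1, a neighbour on chromosome 12, was at 7.38, 4.60 and 7.51 CPM and at 8.45, 29.9 and 3.93 CPM. The groups of Acot1 overlapped (1.11, SE 0.69, edgeR adjusted p = 0.283), and without Runx1_FB_KO replicate 2 its log2 fold change was -0.07. The ratio of Acot2 to Acot1 was 0.762, 1.36 and 0.857 across CTL and 2.28, 2.32 and 2.28 across knockout libraries (difference 1.25 on the log2 scale, exact permutation p = 0.10). It was nearly equal in the 3 knockout libraries although the level of each gene was not. Acot2 shares 29.9% of its 31-base words with Acot1, so reads could be divided wrongly between them. Acot13, a thioesterase of medium and long chains, was at 37.4 ± 6.17 CPM across CTL and 147 ± 60.6 CPM across knockout libraries (1.98, SE 0.35, edgeR adjusted p = 0.0682).

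Of the 12 ratios in TPM, 9 did not overlap between the groups and 3 overlapped. Those 9 stood at the smallest p the exact permutation test allows (0.10, adjusted 0.13). The share of other gene pairs whose ratios do not overlap was not determined, so these counts have no background. The ratios were also not independent, as Cpt1b, Acadvl and Hadha recurred among the pairs. The shares of the roles varied less between libraries than the summed level. By TPM, the dehydrogenases made up 24.4%, 27.5% and 25.3% of the members' total across CTL and 23.1%, 22.7% and 25.9% in the knockout, and the hydratase to thiolase steps 28.5% in each CTL library and 29.8%, 30.7% and 27.9% in the knockout. Carnitine genes took 7.20%, 7.59% and 7.28% across CTL and 6.09%, 5.98% and 7.18% in the knockout. Across the 33 members the order of mean TPM in both groups had a Spearman correlation of 0.946, a description over genes of the same libraries. Etfb (223 ± 23.0 TPM) and Hadhb (192 ± 23.1 TPM) were the most abundant in CTL, a difference within their spread, and Hadhb (666 ± 322 TPM) and Etfb (640 ± 284 TPM) in the knockout (SD, n = 3). Places in that order were lost by Cpt1a (19 to 26), Acaa1a (14 to 21) and Eci2 (12 to 17), and Cpt1b moved up from 20 to 14.

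Set against heart muscle markers within the same library, the members were unequal. The geometric mean of the 16 cardiomyocyte markers was 757, 826 and 679 TPM across CTL and 2146, 2684 and 1425 TPM in Runx1_FB_KO replicates 1, 2 and 3. On the log2 scale the markers were thus 1.51, 1.84 and 0.92 above the CTL mean, and the median member was 1.31, 1.70 and 0.49 above its own CTL mean in TPM. Expressed as a log2 ratio to the markers, the median member differed from CTL by -0.20, -0.14 and -0.44 in the knockout libraries, beside -0.07, -0.05 and 0.10 in CTL. The mean difference was within 0.4 of the markers for 21 of 33 members, a limit set after seeing the values (3.02% of the 13974 genes tested with TPM above 0 in every library). Among these were Hadha (-0.03), Etfb (-0.01), Acadvl (0.04), Eci1 (0.05), Acadm (-0.06) and Cpt1b (0.37). The ratio was more than 1 lower for 91.0% of those genes, whose median difference was -2.22, and for 9 members, namely Cpt1a (-2.21), Acaa1a (-1.89), Acad10 (-1.81), Acad8 (-1.67), Slc22a5 (-1.48), Acot1 (-1.40), Acad9 (-1.30), Acadsb (-1.19) and Eci2 (-1.03). Acads (-0.73) and Echs1 (-0.64) lay between, and Ucp3 (1.45) was above. In the ratio to the markers, 14 members were lower in every knockout library than in any CTL library (89.4% of all genes tested), 0 were higher (0.358%) and 19 overlapped. Ucp3 overlapped because CTL replicate 2 (0.60) stood above Runx1_FB_KO replicate 3 (0.54).

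**Figure D4:**
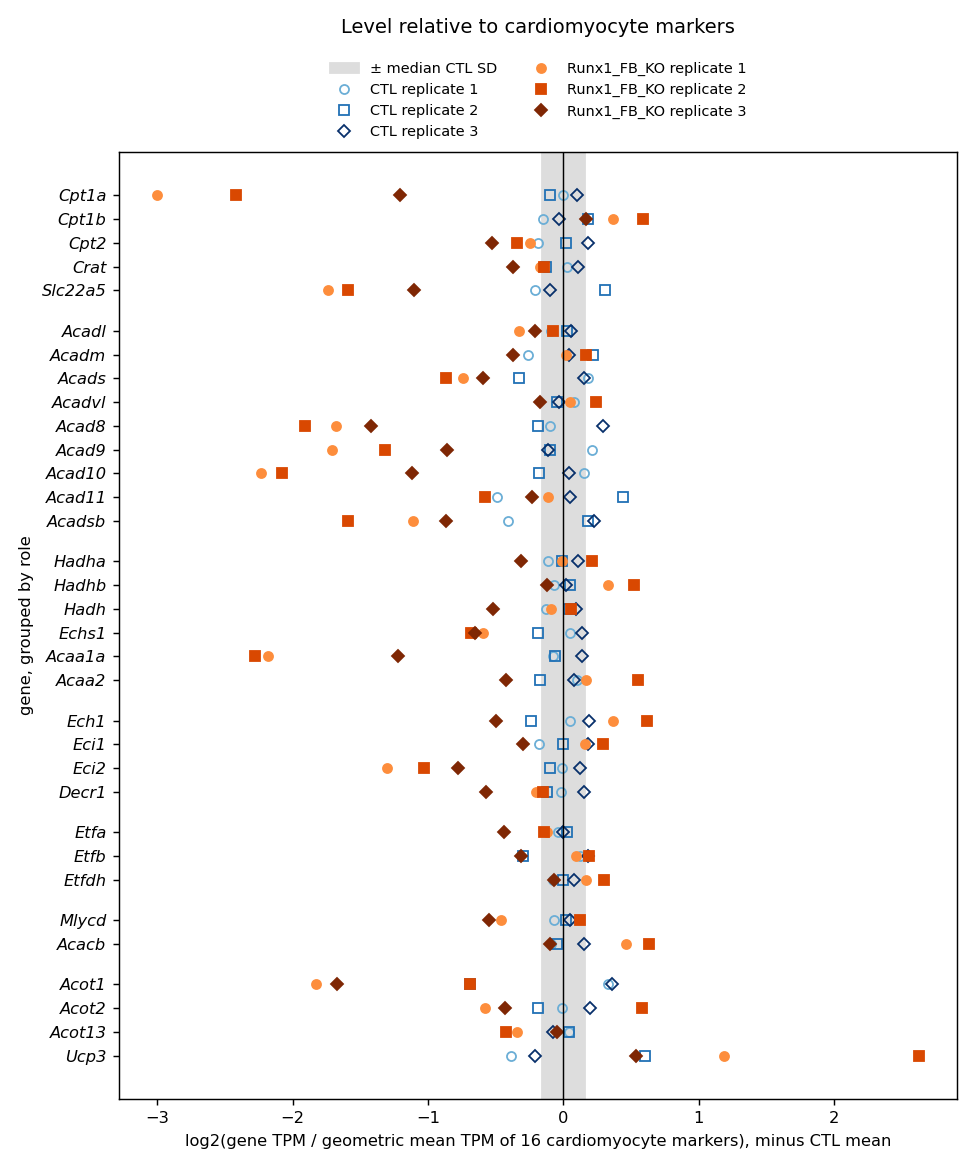
Log2 ratio of each gene's TPM to the geometric mean TPM of 16 cardiomyocyte markers in the same library, minus the CTL mean; open symbols are CTL, filled symbols Runx1_FB_KO, and the grey band is plus or minus the median CTL SD over genes. Genes such as Hadha and Etfdh stay near 0, while Cpt1a, Acaa1a, Acad8 and Acad10 lie to the left in all knockout libraries.

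Other genes of fatty acid metabolism showed mixed directions. Of 48 further genes in 5 lists, 44 were tested and 0 passed. The median log2 fold change of those tested was 0.74, with 30 positive and 14 negative values. All knockout libraries lay above CTL for 22 (20.2% of all genes tested) and below for 6 (18.8%). Acyl-CoA synthetases, which activate fatty acids, divided: Acsl1, the main form of heart muscle, was at 130 ± 19.6 CPM across CTL and 841 ± 552 CPM across knockout libraries (log2 fold change 2.70, SE 0.56, edgeR adjusted p = 0.0682), and Acsl6 was at 1.59 ± 0.48 and 10.98 ± 9.30 CPM. The other 3 of that list, Acsl3, Acsl4 and Acsl5, had all knockout libraries below CTL (log2 fold changes -0.90, -0.62 and -0.50). Slc25a20, the carrier that brings acylcarnitines across the inner membrane, was at 39.0 ± 2.35 CPM across CTL and 132 ± 72.4 CPM across knockout libraries (1.76, SE 0.42, edgeR adjusted p = 0.0691).

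The 15 peroxisomal genes tested had a median log2 fold change of 0.71. All knockout libraries lay above CTL for 6 (20.2% of all genes tested) and below for 1, Acox3 (18.8%). Phyh, which starts the alpha-oxidation of phytanic acid, was at 67.2 ± 16.2 CPM across CTL and 392 ± 220.0 CPM across knockout libraries (2.54, SE 0.51, edgeR adjusted p = 0.0682). The 13 other mitochondrial acyl-CoA genes had a median of 1.63, with 10 above CTL in all knockout libraries and 1, Acot9, below (the same shares of all genes). Acss1, the mitochondrial acetyl-CoA synthetase, and Acat1, the acetoacetyl-CoA thiolase, stood at log2 fold changes of 2.55 for Acss1 (SE 0.53) and 2.41 for Acat1 (SE 0.50), each at an edgeR adjusted p of 0.0682. In the list of malonyl-CoA and synthesis genes, Acsf3 and Mcat had 0.99 (SE 0.28) and 0.98 (SE 0.29), and the groups of Acaca, the cytosolic paralog of Acacb, and of Fasn overlapped.

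**Figure D5:**
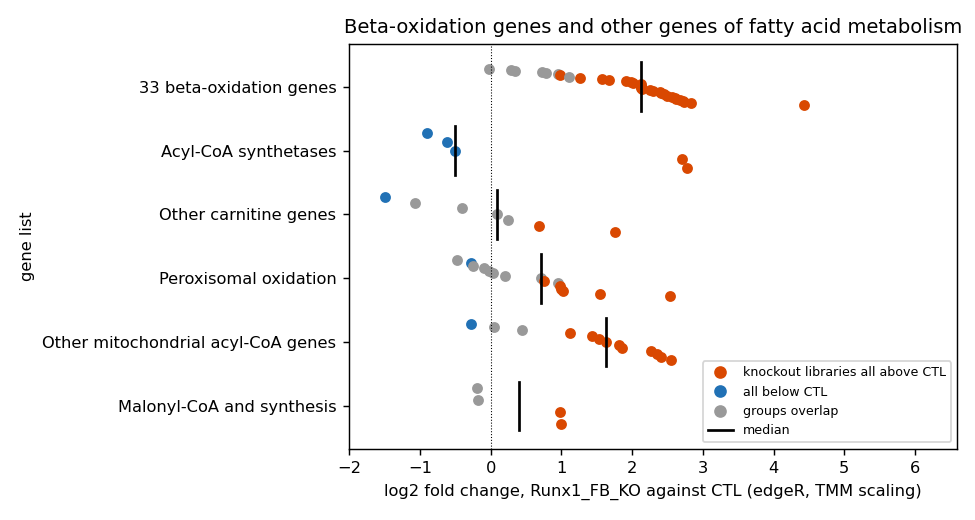
Log2 fold change of Runx1_FB_KO against CTL (edgeR, TMM scaling) for the 33 beta-oxidation genes and for 5 lists of other fatty acid genes, with a black bar at each median. Orange points have all knockout libraries above CTL, blue points all below, and grey points overlap; the acyl-CoA synthetases fall on both sides.

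Cpt1b shares exons on the same strand with Gm44502, a gene model that holds 79.7% of its 31-base words. Salmon assigned Gm44502 at most 2.98% of the reads of both, in CTL replicate 1. Adding them to Cpt1b left the difference in its ratio to Cpt1a at 2.58. Exons of Acadvl overlap 1151 bases of Dvl2 on the opposite strand and those of Acaa1a 290 bases of Myd88. The labels do not say whether the libraries kept strand, so reads in such stretches could come from either gene.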

How the data were processed

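Poly-A RNA of 6 hearts was measured, with sample identities read from the labels. For each library the authors deposited estimated counts, TPM and effective lengths by transcript, made with Salmon 1.5.2 on GRCm38 per the submitters' processing notes, which also name DESeq2 1.44.0. Annotation release and strandedness: not given in the sources used here. Such deposited estimated counts divide reads between transcripts that share sequence, which limits precision for close paralogs. Of 116546 transcripts, 115977 matched GENCODE M21 by identifier and were summed to genes; counts were rounded. Unmatched transcripts held at most 0.102% of reads. Genes passing filterByExpr were scaled by TMM (factors 0.732 to 1.214) and tested with edgeR 4.0.16 quasi-likelihood fits on genotype, with Benjamini-Hochberg adjustment over all 14237 genes and a threshold of 0.05; SEs were obtained as |log2 fold change| over the root of the F statistic. The deposited TPM values, summed per gene, served for levels between genes and for 12 within-library ratios, each tested by a two-sided exact permutation test over samples. Paralogy was measured as shared words of 31 bases. Fits were tested on simulated counts. Alternatives were sex or replicate number in the model, other scalings and filters, length offsets, DESeq2 1.42.0, limma-voom 3.58.1 and leaving out each library. Values in every library were given for genes in a ratio and those with the 3 highest or lowest fold changes; from other lists the 2 genes with the smallest p were named, and others were chosen after their values were seen. A gene that this rule names is not reported here. The members, lists and tests were chosen with earlier results of these data known. The same-numbered libraries of CTL and Runx1_FB_KO had deviations from their group means that correlated at -0.051, 0.113 and 0.081, so the numbers were not taken as pairs.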

Additional observations from a re-analysis of the deposited data

How the results depend on the processing

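With all 6 libraries and an adjusted p of 0.05, edgeR called 0 members higher, and the same count was found with sex in the model, other scalings, a CPM filter, the length offset, limma-voom and without each of the other libraries. The count was 24 without a filter on low counts (4.21% of genes), 27 by DESeq2, 26 at a threshold of 0.1 (12.5% of genes), and 0 to 31 over fits that left out 1 library, 31 being that without Runx1_FB_KO replicate 3; the cause was not tested. Members called lower were 0 in every fit. The median log2 fold change ran from 1.54 (library size alone) to 2.17, and from 1.72 to 2.57 with a library left out. With the replicate number as a block 0 members were called and the median was 1.92; no call changed. The count of members with all knockout libraries above CTL was 26 under each scaling and 26 to 32 with a library left out; that of members below was 2 with library size alone (Cpt1a and Acaa1a), and 0 to 1 with a library left out. The sign held in all 17 alternative fits for 29 of 33 members. It turned for Cpt1a with RLE factors (0.02), DESeq2 (0.02) and without CTL replicate 2 (0.01), Runx1_FB_KO replicate 1 (0.17) or replicate 3 (0.07); for Acad10 (-0.18) and Acaa1a (-0.21) with library size alone; and for Acot1 without Runx1_FB_KO replicate 2 (-0.07). With 1 library left out, Cpt1a ran from -0.29 to 0.17 and Acot1 from -0.07 to 1.6. All 12 ratios kept their direction from estimated counts and without each library, the Cpt1b to Cpt1a difference running from 2.19 to 3.19. Overlap depended on the measure for Acadm over Acads and for Hadha over Hadh. From estimated counts the exact permutation p was 0.1 for Acadm over Acads (0.2 from TPM). For Hadha over Hadh it was 0.2 from estimated counts (0.1 from TPM). The median ratio to the cardiomyocyte markers ran from -0.28 to -0.17.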
